A study of Rattus norvegicus with 16 samples.

Results

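The genes described here are 10 genes of the kidney proximal tubule, chosen by symbol from a glomerular expression table of 13222 genes: Lrp2, Cubn, Slc34a1, Slc5a2, Slc22a6, Slc22a8, Slc26a1, Fbp1, Ggt1 and Miox. All 10 were found. The rule used no expression value. The table covers 16 male Wistar rats of about 175 g in 4 groups of 4, with 1 library per rat. Healthy rats formed the control group (Ctl). The PAN group received puromycin aminonucleoside, a podocyte toxin that leads to heavy urinary protein loss in rats, by intravenous injection, followed by sham vehicle by gavage each day. The PAN_Pio group received PAN and daily oral pioglitazone, an agonist of the nuclear receptor PPARγ in clinical use. The PAN_GQ-16 group received PAN and daily oral GQ-16, a second PPARγ agonist. Kidneys were taken on day 11, and glomeruli were separated from the rest of the kidney by sieving before RNA was extracted. Doses, and whether control rats were injected or gavaged, are not given in the sources used here. Rat numbers are labels without order and pair no rats across groups.

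The proximal tubule begins at the urinary pole of the glomerulus and reclaims most of what the glomerulus filters. Its cells take up filtered protein through the endocytic receptors megalin and cubilin, carry phosphate, glucose and other solutes across the brush border, exchange organic anions and sulfate with the blood, and make glucose. Podocytes, endothelial and mesangial cells make up the glomerular tuft, and tubule fragments commonly accompany glomeruli through a sieve. Megalin is the antigen of Heymann nephritis and is also made by rat podocytes, so Lrp2 is not specific to the tubule in a rat glomerular sample.

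HNF4A is a transcription factor that drives many proximal tubule genes, and promoters were examined because these genes varied together from rat to rat. RefSeq promoter sequences on the rat assembly GRCr8, covering 250 bases before and 50 bases after the annotated start, were matched for 9 of the 10 genes. The TATA box TATAAA, a core promoter element that helps to place the start of transcription, was searched on both strands. It was present in 2 of the 9 and in 14.2% of all 33469 promoters of the same length, and in 10 of 59 promoters of other proximal tubule genes. The 2 promoters that hold it are shown 5′ to 3′ on the strand of the gene, with the TATA box in capitals.
Slc34a1, chr17:9238934-9239233, minus strand: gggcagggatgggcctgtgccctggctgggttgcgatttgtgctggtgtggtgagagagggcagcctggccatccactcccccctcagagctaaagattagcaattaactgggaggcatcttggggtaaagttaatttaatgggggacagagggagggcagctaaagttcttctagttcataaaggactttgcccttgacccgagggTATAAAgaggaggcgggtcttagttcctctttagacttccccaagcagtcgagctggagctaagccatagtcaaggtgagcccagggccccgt
Miox, chr7:122284410-122284709, plus strand: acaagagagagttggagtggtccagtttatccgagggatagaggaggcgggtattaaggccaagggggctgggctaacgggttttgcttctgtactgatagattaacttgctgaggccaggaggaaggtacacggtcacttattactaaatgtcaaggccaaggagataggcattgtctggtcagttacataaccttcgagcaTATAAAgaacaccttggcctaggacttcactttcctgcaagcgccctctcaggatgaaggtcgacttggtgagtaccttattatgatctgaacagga
The match lay 43 bases before the start in Slc34a1 and 47 bases before it in Miox, on the strand of the gene in both. The HNF4 site CAAAGTCCA was in 0 of the 9 and in 0.391% of all promoters, and in 4 of the 59 other proximal tubule promoters. The spelling CAAAGTCCA does not overlap TATAAA and was searched on both strands, and both spellings were settled after several had been searched. A match describes letters in a window and is not a measured binding site.

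Proximal tubule RNA was present in every glomerular library. The 10 genes together took 0.853, 0.390, 0.607 and 0.653% of reads in control rats 1 to 4, and 0.284, 0.441, 0.517 and 0.978% in PAN rats. They took 0.240, 0.419, 0.825 and 0.287% with pioglitazone and 0.645, 0.304, 0.655 and 0.449% with GQ-16. The lowest and highest rats of the study differed 4.07-fold, and the 4 groups overlapped. Both the highest (PAN rat 4) and one of the lowest (PAN rat 1) were injured rats given vehicle. In RNA of a whole preparation, fewer tubule cells and less RNA per tubule cell cannot be told apart.

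The tissue label was checked against 10 podocyte markers, which were all detected in every library and together took 0.281 to 1.57% of reads. Library totals ran from 13351137 to 21977663 reads, and the smallest count of any of the 10 genes was 509 reads, so counting alone adds little error to any value below. The share of reads from 21 mitochondrial genes was 13.9 to 39.6% in control, 5.98 to 10.8% in PAN, 8.77 to 19.4% in PAN_Pio and 6.76 to 31.4% in PAN_GQ-16. The larger this share, the lower the CPM (reads scaled to a common library total) of the other genes, most of all in control rats 2 and 3 (39.6 and 32.6%) and GQ-16 rat 2 (31.4%). The numbers in the sample titles fall into a set of 15 or lower and a set of 25 or higher, a split whose meaning is not given in the sources used here. Of the 5 libraries numbered 25 or higher, 3 are PAN and 0 are control. Each library is taken as 1 rat, which the labels imply without stating it, and no litter or processing date is given. The p-values measure only the spread between these samples, which may be partly technical.

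**Figure D1:**
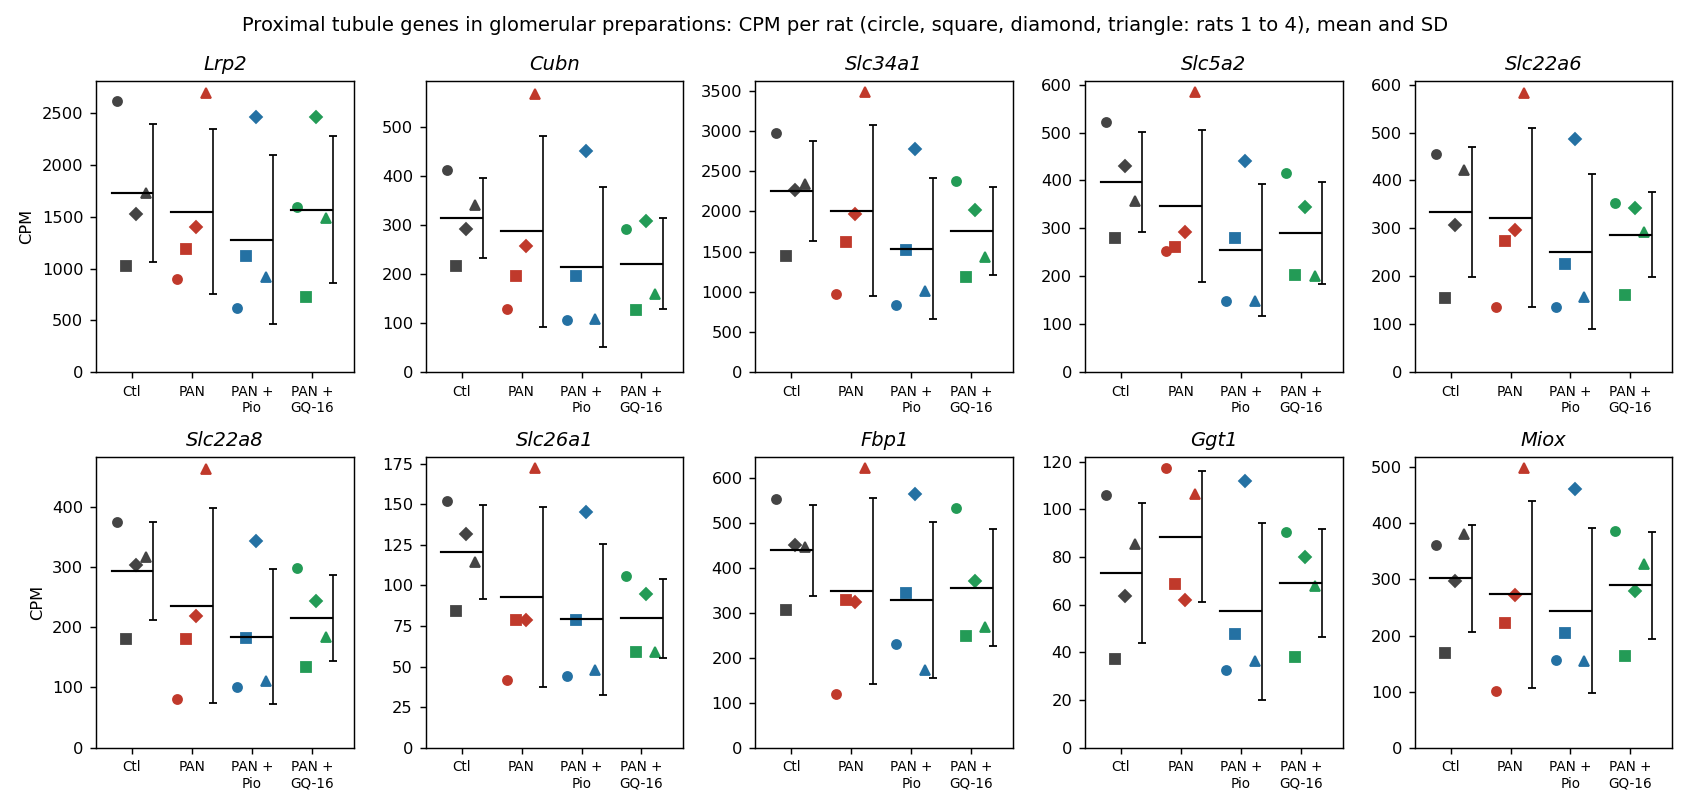
Level of each of the 10 genes in CPM (linear axis from 0) in each rat, by group. Circles, squares, diamonds and triangles mark rats 1 to 4, horizontal lines the group mean and bars the SD of 4 rats; the same rat tends to be highest or lowest in panel after panel, and the 4 groups overlap for every gene.

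The first question is whether the genes differed between injured and healthy glomeruli. None of the 10 was called in PAN against Ctl at an adjusted p under 0.05 by limma on log2(CPM + 1), against 22.3% of all genes (21.7% higher and 0.522% lower). By unadjusted p, 0 of the 10 were under 0.05, against 42.1% of all genes. Voom on the recovered reads, run with the median-ratio scaling described below, also called 0, against 7.92% of all genes in that fit. For 0 of the 10 were the 4 PAN rats separate from the 4 control rats, which held for 23.3% of all genes. Fitted levels were lower in PAN for 9 genes and higher for 1, Ggt1, with a median log2 difference of -0.28 beside a median of 0.28 over all genes. With median-ratio scaling of the libraries, which brought the median of all genes to -0.003, the members' median was -0.59, and still 9 lower and 1 higher, with 0 called.

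Lrp2 (ENSRNOG00000056184) encodes megalin, the large receptor that binds filtered protein on the apical membrane. Its level was 2620.3, 1021, 1532 and 1732 CPM in control rats 1 to 4 and 895, 1187, 1407 and 2701 CPM in PAN rats 1 to 4. With pioglitazone it was 616, 1118, 2468 and 919.9 CPM, and with GQ-16 1596, 726, 2469 and 1494 CPM. Control rat 1, PAN rat 4, pioglitazone rat 3 and GQ-16 rat 3 were the high rats, and the groups overlapped throughout. The log2 difference of PAN from control was -0.20 ± 0.452 (SE), with an adjusted p of 0.736 by limma. Cubn (ENSRNOG00000029047) encodes cubilin, the receptor that works with megalin and needs the protein amnionless (Amn) to reach the membrane. It was 411, 216, 292 and 340.0 CPM in control rats and 129, 195, 257 and 568 CPM in PAN rats, a log2 difference of -0.31 ± 0.475 (SE) with an adjusted p of 0.615 by limma. Group means (± SD, n = 4) were 214 ± 163 CPM in PAN_Pio and 221 ± 92.4 CPM in PAN_GQ-16. PAN rat 4 stood above all other rats of the study for Cubn, and PAN rat 1 below all control rats. The log2 ratio of Lrp2 to Cubn CPM within a library lay between 2.24 and 3.23 over the 16 rats.

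The brush-border cotransporters were high and low in much the same rats. Slc34a1 (ENSRNOG00000015262) encodes NaPi-IIa, the main phosphate transporter of the brush border. It stood at 2972, 1448, 2268 and 2336 CPM in control rats 1 to 4 and at 965, 1620.5, 1968 and 3481 CPM in PAN rats. In the treated groups it stood at 830.1, 1518, 2775 and 1014 CPM (pioglitazone) and 2381, 1179, 2021 and 1432 CPM (GQ-16). Control rat 2 was the lowest control rat, and PAN rat 4 was higher than every control rat while PAN rat 1 was lower than every one. The difference of PAN from control was -0.27 ± 0.407 (SE) on the log2 scale, with an adjusted p of 0.610 by limma. Slc5a2 (ENSRNOG00000020039) encodes SGLT2, the glucose cotransporter targeted by gliflozin drugs. Control rats had 522, 279, 430.2 and 356 CPM and PAN rats 252, 261, 292 and 584 CPM, for a log2 difference of -0.25 ± 0.364 (SE) and an adjusted p of 0.605 by limma. Means were 254 ± 138 CPM (SD, n = 4) in the PAN_Pio group and 291 ± 106 CPM in the PAN_GQ-16 group. In PAN rat 1, which was low for most of the 10 genes, Slc5a2 was close to the levels of PAN rats 2 and 3.

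Of the 3 carriers of the basolateral membrane, Slc22a6 (ENSRNOG00000018215) and Slc22a8 (ENSRNOG00000018086) encode OAT1 and OAT3, which take organic anions and many drugs from the blood, and Slc26a1 (ENSRNOG00000000041) encodes a sulfate exchanger. Slc22a8 was 374, 181, 303 and 317 CPM in control rats and 81.4, 179.8, 219 and 463 CPM in PAN rats. With pioglitazone it was 100.4, 181, 344 and 111 CPM and with GQ-16 299, 134, 243 and 184 CPM. PAN rat 1 was the lowest of the 16 rats and PAN rat 4 the highest, so the PAN group spanned the control group on both sides. Its log2 difference of -0.53 ± 0.457 (SE) in PAN had the largest size of the 10 genes, close to those of Fbp1 and Slc26a1, and its adjusted p by limma was 0.377. Slc22a6 ranged from 156 to 455 CPM in Ctl, 137 to 583 in PAN, 136 to 487 in PAN_Pio and 160.2 to 353 in PAN_GQ-16, and its PAN difference was -0.12 ± 0.460 (SE), the smallest in size (adjusted p 0.844, limma). Slc26a1 was 152, 84.0, 132 and 115 CPM in control rats and 41.9, 78.8, 78.5 and 172 CPM in PAN rats, where rats 1 to 3 were all below the lowest control rat and rat 4 above the highest. The difference was -0.52 ± 0.396 (SE), with an adjusted p of 0.313 by limma. Without PAN rat 4 it was -0.88 with an adjusted p of 0.0839 by limma, the smallest reached by any of the genes in this comparison. Slc26a1 means were 79.0 ± 46.7 CPM (SD, n = 4) in the PAN_Pio group and 79.7 ± 24.3 CPM in the PAN_GQ-16 group.

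The enzymes among the 10 genes did not all keep to this order. Fbp1 (ENSRNOG00000017597) encodes fructose-1,6-bisphosphatase, an enzyme of gluconeogenesis. It was 553, 305, 450.1 and 445 CPM in control rats and 120.0, 327, 323 and 621 CPM in PAN rats. PAN rat 1 was far below every other rat of its group, and PAN rat 4 above every control rat. The log2 difference was -0.52 ± 0.428 (SE), with an adjusted p of 0.350 by limma. Means were 328 ± 173 CPM (SD, n = 4) in the PAN_Pio group and 355 ± 129.9 CPM in the PAN_GQ-16 group. Miox (ENSRNOG00000008694) encodes myo-inositol oxygenase, which opens the ring of inositol and is made largely in this segment. It was 361, 169.7, 297 and 382 CPM in control rats and 100.5, 223, 272 and 499 CPM in PAN rats, a log2 difference of -0.30 ± 0.444 (SE) with an adjusted p of 0.613 by limma. Miox ranged from 154 to 462 CPM with pioglitazone and from 163 to 387 CPM with GQ-16, overlapping both other groups.

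Ggt1 (ENSRNOG00000047697) encodes gamma-glutamyltransferase, the brush-border enzyme that breaks down glutathione, and was the member whose order of rats departed from the rest. It was 106, 37.3, 63.8 and 85.5 CPM in control rats 1 to 4 and 117, 68.5, 61.9 and 107 CPM in PAN rats 1 to 4. With pioglitazone it was 32.6, 47.7, 112 and 36.4 CPM and with GQ-16 90.4, 38.2, 79.8 and 68.0 CPM. PAN rat 1, the lowest PAN rat for the other 9 genes, was the highest of all 16 rats for Ggt1 on the deposited scale. With median-ratio scaling it was still the highest PAN rat for Ggt1, at 102 CPM, but pioglitazone rat 3 (108 CPM) and control rat 1 (103 CPM) were higher. The PAN difference was 0.32 ± 0.387 (SE) on the log2 scale, with an adjusted p of 0.528 by limma, and 0.02 with median-ratio scaling.

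The 95% intervals of the 10 differences lay between -1.50 and 1.14 on the log2 scale, and all 10 held 0. For 9 genes, all but Ggt1, the interval also held a value of -1, so a difference of that size lies within the error of 4 rats a group. Taking the split in the title numbers as a covariate turned the fitted difference of the 9 lower genes to between 0.12 and 0.45. Within the libraries numbered 15 or lower there was a single PAN rat, rat 4 with 0.978% of reads from the 10 genes, beside 4 control rats with 0.390 to 0.853%. The 3 PAN rats numbered 25 or higher had 0.284 to 0.517% and no control rat shares their set, so for these rats the numbering and the injury cannot be told apart.

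**Figure D2:**
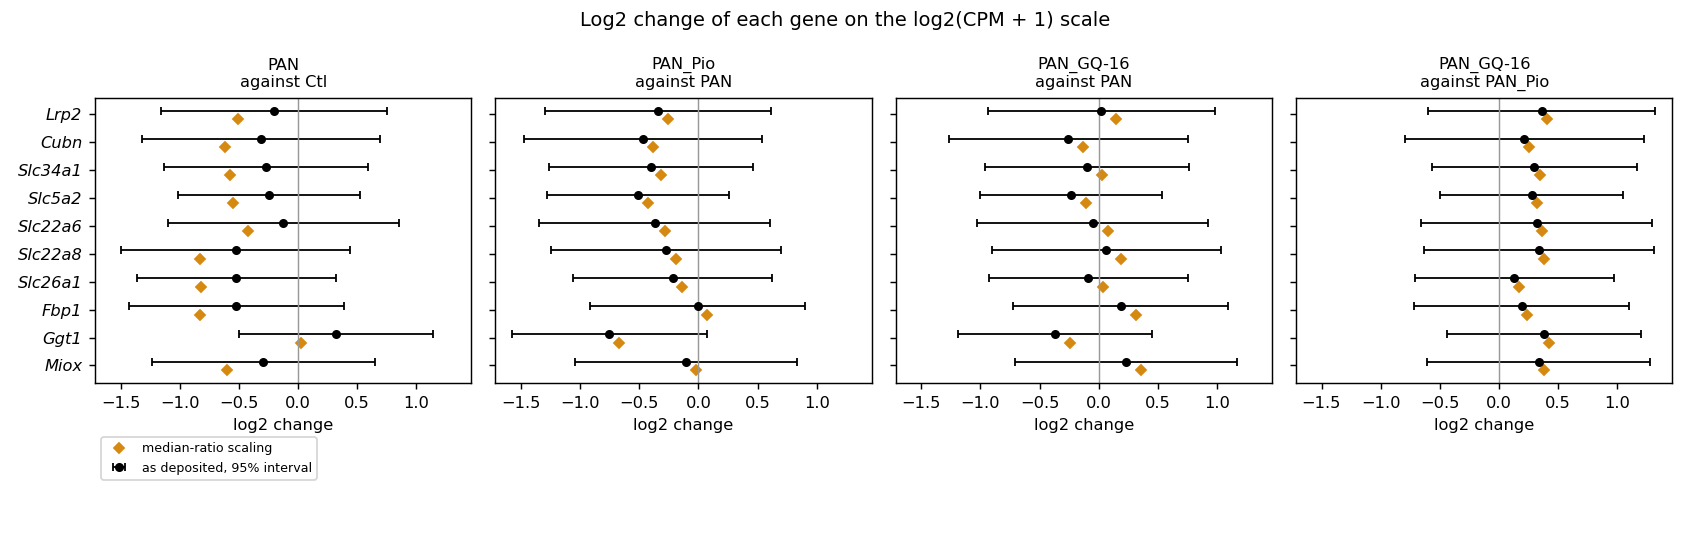
Log2 differences of the 10 genes on the log2(CPM + 1) scale in 4 comparisons, with points and bars for the fitted value and its 95% interval on the deposited scale and diamonds for the value with median-ratio scaling. Every interval crosses 0, 9 of 10 genes lie below 0 in PAN against Ctl under both scalings, and all 10 lie above 0 in PAN_GQ-16 against PAN_Pio.

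The next question is whether either PPARγ agonist was followed by a difference from PAN with vehicle. Both comparisons use the same 4 PAN rats. In PAN_Pio against PAN, 0 of the 10 genes were called by limma, against 0% of all genes, and voom called 0 genes in all. By unadjusted p, 0 of the 10 were under 0.05, against 3.74% of all genes, and for 0 of the 10 did the groups separate, against 2.76%. All 10 fitted differences were below 0, from -0.75 for Ggt1 to -0.01 for Fbp1, with a median of -0.35, and Fbp1 alone turned to 0.08 with median-ratio scaling. Adjusted p-values ran from 0.916 to 0.997. Pioglitazone rat 3 had the highest level of its group for all 10 genes, while rat 1 was lowest for 7 and rat 4 for the other 3 (Slc5a2, Fbp1 and Miox), or for 2 and 8 with median-ratio scaling.

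In PAN_GQ-16 against PAN, limma called 0 of the 10 genes, against 0.0151% of all genes, and voom called 0 genes in all. Unadjusted p-values were under 0.05 for 0 of the 10 and for 8.27% of all genes, and the groups separated for 0 of the 10 and for 3.62% of all genes. Differences ran from -0.37 for Ggt1 to 0.23 for Miox with a median of -0.07. Miox, Fbp1, Slc22a8 and Lrp2 lay above 0 and the other 6 below it, and with median-ratio scaling 7 lay above 0 and 3 below. Adjusted p-values were between 0.850 and 0.994. The order of rats differed slightly from gene to gene: rat 1 was highest for 8 genes and rat 3 for Lrp2 and Cubn, and rat 2 was lowest for 9 and rat 4 for Slc5a2. With median-ratio scaling rat 1 was highest for 9, and rat 2 was lowest for 6 and rat 4 for 4.

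The 2 agonists were also set side by side, at doses that are not given in the sources used here, so that a match in dose cannot be checked. In PAN_GQ-16 against PAN_Pio, 0 of the 10 genes were called by limma or voom, against 0% of all genes. By unadjusted p, 0 of the 10 were under 0.05 (5.94% of all genes), and 0 of the 10 separated the groups (2.14%). All 10 were higher with GQ-16 than with pioglitazone in the fit, by 0.13 (Slc26a1) to 0.38 (Ggt1) with a median of 0.31, also with median-ratio scaling (0.17 to 0.42), and adjusted p was 0.999 throughout. The 95% intervals lay between -0.79 and 1.32, and for 9 of the 10 genes, all but Slc26a1, they held a value of 1. The genes share their rats, so 10 values on one side of 0 are not 10 separate observations.

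The treated groups were also compared with control rats, to describe the state reached under each agonist. These comparisons share the control rats with the injury comparison. In PAN_Pio against Ctl, 0 of the 10 genes were called by limma, against 4.98% of all genes (4.7% higher and 0.287% lower). By unadjusted p, 0 were under 0.05 (28.5% of all genes). Voom also called 0 of the 10, against 1.89% of all genes in that fit. All 10 differences were below 0, from -0.80 for Slc22a8 to -0.40 for Miox with a median of -0.61, beside 0.21 over all genes. With median-ratio scaling the all-gene median was 0.01 and that of the 10 genes -0.83, and unadjusted p was under 0.05 for 4 of them (20.7% of all genes with that scaling), with a smallest adjusted p of 0.155 by limma. Slc5a2 came nearest to the threshold on the deposited scale, with 522, 279, 430.2 and 356 CPM in control rats and 149, 279, 439.8 and 149 CPM with pioglitazone, a difference of -0.76 ± 0.364 (SE) and an adjusted p of 0.181 by limma. Pioglitazone rats 1 and 4 were below every control rat for Slc5a2, and rats 2 and 3 were within the control range, which with median-ratio scaling held for rat 3 only. Without pioglitazone rat 3 the smallest adjusted p among the 10 genes was 0.0745, and 7 of them had an unadjusted p under 0.05, against 30.3% of all genes in the same fit, where 4.57% were called.

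In PAN_GQ-16 against Ctl, 0 of the 10 genes were called by limma, against 0.151% of all genes, and 0 had an unadjusted p under 0.05 (23.9% of all genes). Voom called 0 of the 10, against 0.265% of all genes in that fit. Differences were all below 0, from -0.61 for Slc26a1 to -0.05 for Ggt1, with a median of -0.36 beside 0.17 over all genes. The median was -0.53 with median-ratio scaling, beside 0.004 over all genes. For 0 of the 10 did the rats separate in either comparison with control, against 14.1% (pioglitazone) and 6.01% (GQ-16) of all genes. Adjusted p-values ran from 0.338 to 0.939 by limma.

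The 10 genes varied widely among rats of one group. Their SD within groups on the log2(CPM + 1) scale was between 0.576 (Slc5a2) and 0.764 (Cubn), with a median of 0.696. Over 11616 genes with a mean of at least 5 CPM the median SD was 0.232 and the 95th percentile 0.632, which 7 of the 10 genes exceeded. Control rat 1 was the highest control rat for 9 genes, with rat 4 highest for Miox, and rat 2 was the lowest for all 10. With median-ratio scaling rat 1 was highest for 5 genes, rat 3 for 4 and rat 4 for Miox, and rat 2 was lowest for 9. Among PAN rats, rat 4 was highest and rat 1 lowest for the 9 genes other than Ggt1 under both scalings. The spread was thus shared: after taking out group means, the 45 pairs of genes had Pearson correlations over the 16 rats between 0.51 and 0.99, with a median of 0.92. The 36 pairs without Ggt1 had correlations of 0.79 or higher, and Slc34a1 and Slc22a8 had the highest, at 0.99. Without PAN rat 4 and pioglitazone rat 3, the rats farthest from the median, the 45 values ran from 0.31 to 0.98 with a median of 0.87. These correlations describe the rats, whose values for all genes come from 1 library and share its total.

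**Figure D3:**
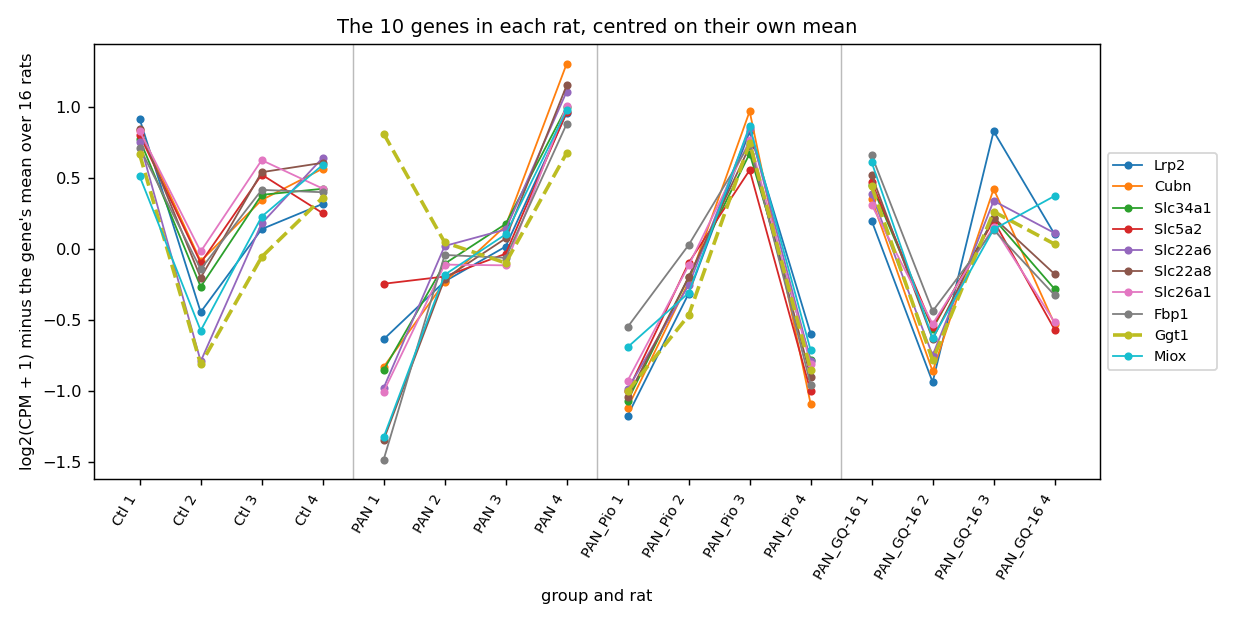
Each gene's log2(CPM + 1) in each rat minus its own mean over the 16 rats, with lines joining the rats of a group only as a guide. The 10 lines run close together in all groups, apart from Ggt1 (thick dashed line), which is highest of the 10 in PAN rat 1 and follows the others elsewhere.

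A second way to see this is the level of a gene relative to the mean log2 level of 62 other proximal tubule genes in the same library, which does not depend on the library total apart from the added 1 CPM. On that scale the SD within groups was 0.123 to 0.452, with a median of 0.244, lowest for Slc34a1 and highest for Ggt1. The log2 ratio of Slc34a1 to Slc22a8 CPM ran only from 2.88 to 3.57 over the 16 rats, with an SD of 0.165, while their CPM varied several fold. The 2 organic anion carriers, whose genes are neighbours on rat chromosome 1, had a mean log2 ratio of Slc22a8 to Slc22a6 CPM of -0.12 ± 0.280 (SD, n = 4) in Ctl, -0.53 ± 0.183 in PAN, -0.44 ± 0.0835 in PAN_Pio and -0.42 ± 0.203 in PAN_GQ-16. This ratio was not tested between groups.

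Genes outside the proximal tubule lists whose rat-to-rat pattern was most like the mean of the 10 genes were found among 11157 named genes with a mean of at least 5 CPM. The 6 with the highest correlation over the 16 rats, after group means were taken out, were the cytochrome P450 genes Cyp2d2 and Cyp2c23, the quinone reductase gene Cryz, the iodotyrosine deiodinase gene Iyd, the sodium and inositol cotransporter gene Slc5a11 and the nucleotidase gene Entpd5, all at 0.99. Cyp2c23 had means of 602 CPM in Ctl, 477 in PAN, 418 in PAN_Pio and 426 in PAN_GQ-16. The 3 lowest were Prdm16 at -0.89, Madd at -0.86 and Pfkp at -0.85. In all, 1186 of the 11616 genes with a mean of at least 5 CPM had a correlation above 0.8. Of the 62 other proximal tubule genes 47 did, against 0 of 10 podocyte markers, 0 of 4 thick ascending limb markers and 1 of 8 collecting duct markers (Aqp3, an aquaporin, at 0.93). The endothelial genes Cdh5 and Kdr were at -0.75.

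The rest of the proximal tubule program was read from 71 other genes, of which 62 were in the table. In each of the 6 comparisons 0 of the 62 were called by limma or by voom. In PAN against Ctl, 14 were higher and 48 lower, 2 had an unadjusted p under 0.05 (42.1% of all genes), and the median difference was -0.39 (-0.68 with median-ratio scaling). Without PAN rat 4, 23 of the 62 had an unadjusted p under 0.05, against 44.6% of all genes in that fit, and 1 was called, against 24.4%. Of 4 genes of the endocytic machinery, 1 was higher and 3 lower: Lrpap1, the chaperone of megalin, at 0.27, the adaptor Dab2 at -0.27, Amn, the partner of cubilin, at -0.32, and the chloride channel gene Clcn5 at -0.40. Of 22 genes in the apical transport list 8 were higher and 14 lower. The list also holds the dicarboxylate carrier Slc13a3, at -0.08, which is basolateral. Others in it were the scaffold Pdzk1 at -0.58, the water channel Aqp1 at -0.26 and Cltrn at -0.39. All 6 genes in the basolateral carrier list were lower, with Slc4a4, the bicarbonate exporter, at -0.57. Among 5 brush-border peptidases 2 were higher and 3 lower, with Dpp4 at 0.06 and Anpep at -0.06. Metabolic genes had the lowest median, -0.54 over 23 genes, with 3 higher and 20 lower. Among them Gatm, which makes the creatine precursor, was at -0.92, Hao2 at -0.79 and Pck1, the gluconeogenic carboxykinase, at -0.77. The factor Hnf4a was at -0.53. Adjusted p-values of the genes named here ran from 0.177 to 0.915 by limma, and whether the classes differ from one another was not tested.

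In the treated groups the same 62 genes had median differences of -0.27 in PAN_Pio against PAN (7 higher, 55 lower), -0.05 in PAN_GQ-16 against PAN (25 higher, 37 lower) and 0.22 in PAN_GQ-16 against PAN_Pio (54 higher, 8 lower). Against control they had medians of -0.62 with pioglitazone and -0.43 with GQ-16. With median-ratio scaling the GQ-16 median against PAN turned to 0.08. Unadjusted p-values were under 0.05 for 4 of the 62 in PAN_Pio against PAN (3.74% of all genes), 1 in PAN_GQ-16 against PAN (8.27%), 1 in PAN_GQ-16 against PAN_Pio (5.94%) and 1 in PAN_GQ-16 against Ctl (23.9%). In PAN_Pio against Ctl the count was 7 with all rats (28.5% of all genes) and 46 without pioglitazone rat 3, where 2 of the 62 were called. In that fit 30.3% of all genes had an unadjusted p under 0.05 and 4.57% were called.

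Markers of other cell types in the preparation were read beside these genes. All 10 podocyte markers had higher fitted levels in PAN than in control, and among them Wt1, a transcription factor of podocytes, was called higher by limma, at 1.52 with an adjusted p of 0.0400. Over 18 alternative fits its adjusted p ran from 0.00365 to 0.460, and the call was lost in 12, among them median-ratio scaling and leaving out control rat 2, control rat 3 or any of PAN rats 1 to 3. Markers of later tubule segments were called lower in PAN for 2 of 4 genes of the thick ascending limb, 2 of 3 of the distal tubule and 1 of 8 of the collecting duct, against 0.522% of all genes called lower: Umod (-0.85) and Kcnj1 (-1.02) of the thick ascending limb, Slc12a3 (-1.15) and Calb1 (-1.57) of the distal tubule and Atp6v1b1 (-1.10) of the collecting duct. Each of these 5 calls was lost without PAN rat 1, without control rat 2, with the title number as covariate and with podocyte level as covariate, and that of Slc12a3 also with median-ratio scaling. Of other glomerular cells, 5 of 5 mesangial markers were called higher, also with median-ratio scaling, against 21.7% of all genes called higher (7.12% with median-ratio scaling). Of these, Des kept its call in all 18 alternative fits, while the cell type that made its RNA was not tested. Itga8 and Pdgfrb lost theirs with the title number as covariate, and Itga8, Cspg4 and Gata3 with podocyte level as covariate, with adjusted p-values of up to 0.128. By limma 0 of 5 endothelial and 0 of 4 parietal markers were called (0 of each also by unadjusted p). Of 5 leukocyte markers 2, Cd68 and Adgre1, were called higher, and neither with median-ratio scaling, beside the same shares of all genes. In PAN_Pio against Ctl, 4 of 8 collecting duct markers were called lower, Hsd11b2 (-1.25), Aqp2 (-1.26), Scnn1g (-1.16) and Scnn1b (-0.87), also with median-ratio scaling, against 0.287% of all genes called lower. The median of the 8 was -0.88, beside -0.61 for the 10 proximal tubule genes in that comparison. Each of these 4 calls was lost without control rat 2, control rat 3 or pioglitazone rat 2. The 5 mesangial markers were also called higher there, against 4.7% of all genes, and Cspg4 kept its call in all 19 alternative fits while each of the other 4 lost it in 2 to 7. In PAN_GQ-16 against Ctl, 0 of these segment and mesangial markers were called by limma, with 0 of 15 segment markers and 5 of 5 mesangial markers at an unadjusted p under 0.05 (23.9% of all genes). Called changes in these segments and not in the 10 genes do not show that the segments differ, since the difference between them was not tested.

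The 10 podocyte markers took 0.992, 0.281, 0.282 and 0.510% of reads in control rats 1 to 4, 1.14, 1.02, 0.916 and 0.783% in PAN rats, 0.501, 0.732, 0.986 and 1.29% with pioglitazone, and 0.856, 0.461, 1.25 and 1.57% with GQ-16. The log2 ratio of the 10 proximal tubule genes to these markers within a library does not depend on library scaling. It was -0.22, 0.47, 1.11 and 0.36 in control rats and -2.01, -1.20, -0.82 and 0.32 in PAN rats. With pioglitazone it was -1.06, -0.80, -0.26 and -2.17, and with GQ-16 -0.41, -0.60, -0.93 and -1.81. PAN rat 4 lay within the control range and PAN rats 1 to 3 below it, and all 4 rats given GQ-16 and all 4 given pioglitazone lay below the lowest control rat. The 5 libraries numbered 25 or higher had ratios of -2.17 to -0.82 and the 11 others -1.06 to 1.11. The part of podocyte RNA and of the numbering in these ratios was not tested.

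**Figure D4:**
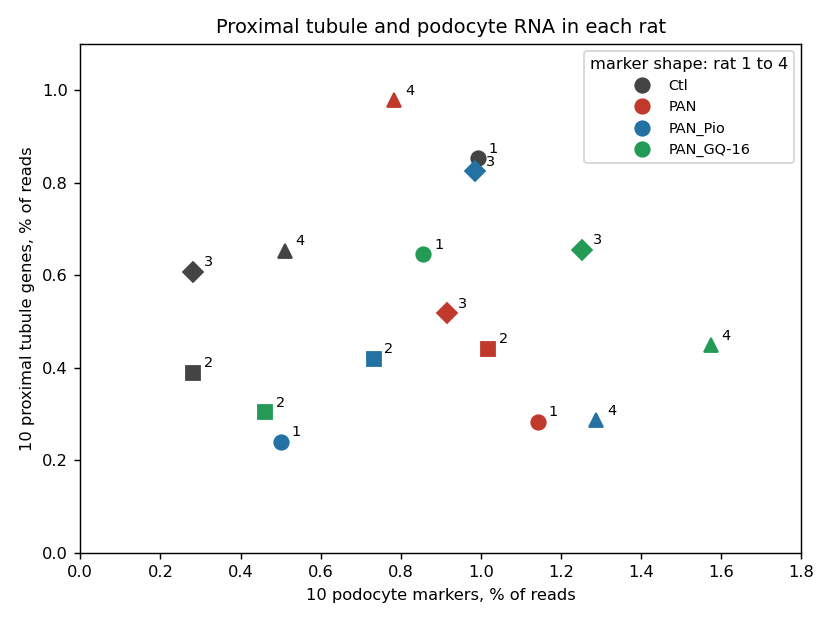
Summed CPM of the 10 proximal tubule genes as a percent of reads (vertical axis) against that of 10 podocyte markers (horizontal axis), with 1 point per rat, coloured by group and numbered by rat. Control rats 2 and 3 have the lowest podocyte shares, PAN rat 4 the highest tubule share, and no single line orders the 16 rats.

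PAN rat 1 departed from the other rats in the balance among the 10 genes. This rat was singled out after its values were seen. Relative to the 62 other proximal tubule genes, its Ggt1 stood at 1.11, while the other 15 rats had -1.01 to -0.07. Its Slc5a2, at 2.21, was also above the other 15 (1.49 to 1.96). Fbp1 at 1.14 (others 1.72 to 2.17), Slc22a8 at 0.59 (0.93 to 1.53), Miox at 0.89 (1.14 to 2.19) and Slc26a1 at -0.35 (-0.26 to 0.22) were below all other rats. Lrp2, Cubn, Slc34a1 and Slc22a6 lay within the range of the others. The 5 genes read here that are known to be raised in injured tubules were all highest in this rat, also with median-ratio scaling. Spp1, encoding osteopontin, was 1959 CPM against 17.8 to 144 in the other 15 rats, and Clu, encoding clusterin, 654 CPM against 159 to 333. Vcam1 was 74.1 CPM (others 18.3 to 44.3), Lcn2, the lipocalin of injured nephrons, 15.9 CPM (0.917 to 10.6) and Sox9 10.1 CPM (1.23 to 7.09). Glomerular cells can also express several of these genes. All 5 leukocyte markers read here were also highest in this rat on the deposited scale. Cd68 was 38.3 CPM (up to 17.1 in the other rats), Adgre1 27.9 CPM (up to 10.7) and Ptprc 91.6 CPM (up to 64.0). Cd74 was 828 CPM (up to 580) and Cd3e 3.05 CPM (up to 2.79). The parts of tubule injury and of leukocytes in the pattern of this rat were not tested.

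**Figure D5:**
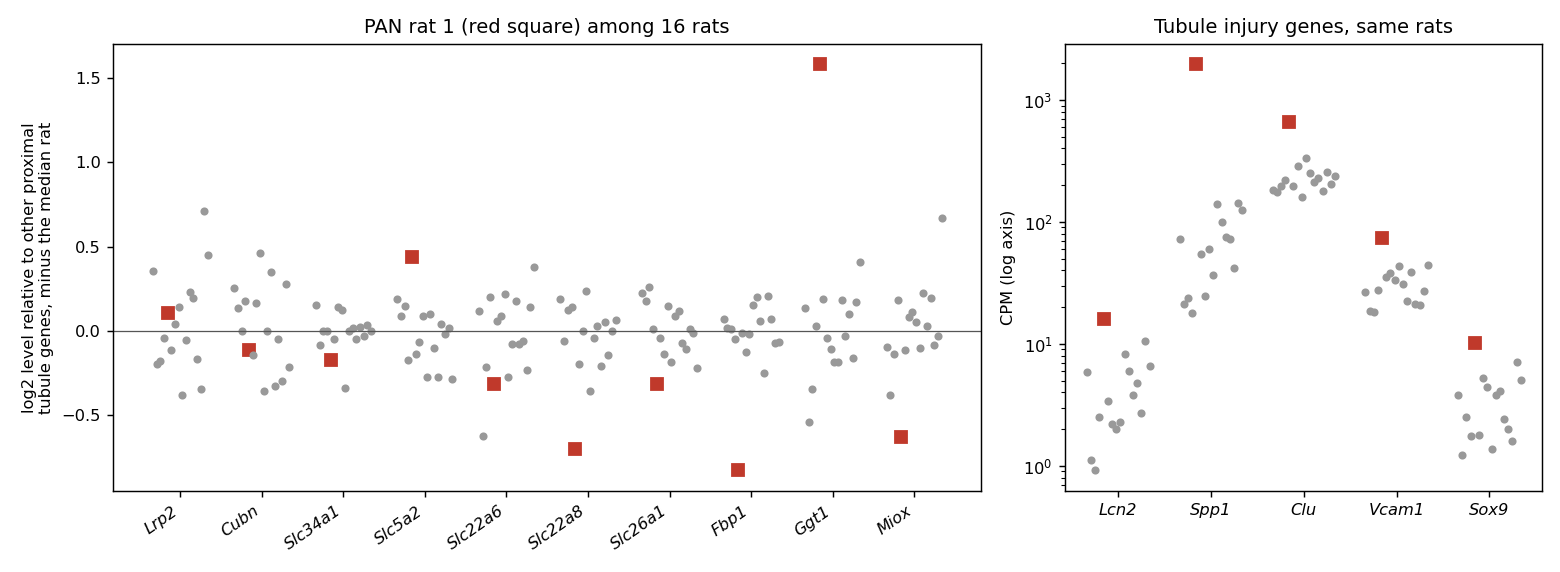
Left, log2 level of each of the 10 genes relative to 62 other proximal tubule genes, minus the median of the 16 rats, with PAN rat 1 as a red square and the other 15 rats as grey points; right, CPM of 5 tubule injury genes in the same rats on a log axis. PAN rat 1 is highest for Ggt1, Slc5a2 and all 5 injury genes and lowest for Slc22a8, Slc26a1, Fbp1 and Miox.

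Without PAN rat 1 the fitted PAN difference was 0.02 for Lrp2, 0.03 for Slc34a1, 0.23 for Slc22a6, 0.11 for Miox and 0.17 for Ggt1, and between -0.20 and -0.005 for the other 5 genes, with 0 called by limma (7.93% of all genes in that fit) and 0 at an unadjusted p under 0.05 (29.9%). Without PAN rat 4 it was -0.51 for Lrp2, -0.59 for Slc34a1, -0.47 for Slc22a6, -0.66 for Miox and 0.21 for Ggt1, and -0.72 for Cubn, -0.53 for Slc5a2, -0.94 for Slc22a8, -0.88 for Slc26a1 and -0.88 for Fbp1. Of the 10 genes 0 were called, against 24.4% of all genes, and 3 (Slc22a8, Slc26a1 and Fbp1) had an unadjusted p under 0.05, against 44.6%. The fitted size of the PAN difference thus depended on which of these 2 rats was kept.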

How the data were processed

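The deposited table gives log2 CPM values for 13222 genes in 16 libraries of stranded poly(A) RNA. The submitters' processing notes name HISAT2, featureCounts, Subread, limma and the build Rnor_6.0, without role or order. The deposited log2 values equal the logarithm of count plus 0.5 over library total plus 1, on the CPM scale. Undoing this gave whole reads for 100% of values (within 0.01 read), so the values carry no scaling factor beyond the total. Totals of listed genes ran from 13351137 to 21977663 reads. CPM was recovered as 2 to the power of the deposited log2 value.

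Tests used limma (version 3.58.1, R 4.3.3), fitted to log2(CPM + 1) with 4 group means over 16 libraries, a trend of variance on mean, and Benjamini-Hochberg adjustment over 13222 genes. They were two-sided, with calls at an adjusted p under 0.05. The procedure was tested on simulated data. Log2 differences on this scale understate those of low genes.

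The first alternatives were median-ratio scaling, quantile normalization, totals without mitochondrial genes, a pseudocount of 0.1 and a mean of at least 10 CPM. Others were a fit to only the groups compared, title number or podocyte level as covariate, and voom on recovered reads with median-ratio scaling. Title numbers of 15 or lower, and leaving out each rat, were also used. The mean of the other proximal tubule genes as covariate was chosen after seeing the data. The members and gene lists were chosen with earlier results of these data known. All 10 members are named in PAN against Ctl. In other comparisons a member is given in full only with an unadjusted p under 0.05. Other list genes are named by highest mean CPM, up to 4 per class, although some items are not reported here, and genes of like pattern as the 6 highest and 3 lowest correlations. Genes outside this rule are named for cell type markers called by the test, for Slc5a2 in PAN_Pio against Ctl, for PAN rat 1 and among other observations, after their values were seen. Promoter sequences are from RefSeq (GRCr8), and no coordinates on Rnor_6.0 are given.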

Additional observations from a re-analysis of the deposited data

Results flagged for a closer look

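In each group of 4 rats, the gap of the highest or lowest rat to its nearest neighbour was compared with the range of the group, for the 10 genes, their summed level, their ratio to podocyte markers, their level relative to other proximal tubule genes and 5 tubule injury genes. The last 2 kinds were added after PAN rat 1 had been seen to stand apart. Of 108 groups examined, 2 exceeded Dixon's limit for 4 values, where chance would give about 5.4, and both concern PAN rat 1. Vcam1, an adhesion molecule, had a log2 CPM of 6.21 in that rat beside 5.06 to 5.24 in the other PAN rats, a gap of 0.844 of the range. Vcam1 was called higher in PAN against Ctl by limma (0.90, adjusted p 0.0344), and without PAN rat 1 the difference was 0.64 with an adjusted p of 0.120. It was called in 7 of 18 alternative fits, whose adjusted p-values ran from 0.0247 to 0.415. The log2 level of Fbp1 relative to other proximal tubule genes was 1.14 in PAN rat 1 beside 1.85 to 1.96 in the other PAN rats, a gap of 0.865 of the range. For 0 of the 10 genes did all rats of one agonist lie above the PAN mean and all of the other below it. The share of all genes with this pattern was not counted, so the 0 is not read as particular to the 10 genes.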

How the results depend on the processing

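No member was called in any of 111 alternative fits over the 6 comparisons by limma or voom, and the smallest adjusted p was 0.0745 (PAN_Pio against Ctl without pioglitazone rat 3). Directions in PAN against Ctl were less stable. With the title number as covariate they turned to 0.18 (Lrp2), 0.45 (Cubn), 0.27 (Slc34a1), 0.39 (Slc5a2), 0.36 (Slc22a6), 0.12 (Slc22a8), 0.14 (Slc26a1), 0.20 (Fbp1) and 0.15 (Miox). With the other proximal tubule genes as covariate they turned to 0.11 (Lrp2), 0.057 (Cubn), 0.035 (Slc34a1), 0.022 (Slc5a2), 0.23 (Slc22a6) and 0.036 (Miox), and Ggt1 turned to -0.29 with podocyte level as covariate. The cause was not tested. Leaving out 1 rat gave -0.51 to 0.024 for Lrp2, -0.59 to 0.030 for Slc34a1, -0.47 to 0.23 for Slc22a6 and -0.66 to 0.11 for Miox. The other 6 genes kept their sign: Cubn -0.72 to -0.005, Slc5a2 -0.53 to -0.10, Slc22a8 -0.94 to -0.11, Slc26a1 -0.88 to -0.20, Fbp1 -0.88 to -0.09 and Ggt1 0.03 to 0.53. The summed level of the 10 genes differed by -0.26 on the log2 scale in PAN against Ctl and by -0.57 with median-ratio scaling, and ran from -0.58 to 0.01 without 1 rat. Over all genes, 2943 were called in PAN against Ctl (2874 higher, 69 lower) and 1141 with median-ratio scaling (941 higher, 200 lower). Without 1 rat the shares of all genes called ran from 6.34% (without control rat 3) to 37.5% (without control rat 1) in PAN against Ctl, from 0.363% (without control rat 2) to 12.6% (without control rat 1) in PAN_Pio against Ctl and from 0% (without GQ-16 rat 3) to 11.9% (without control rat 1) in PAN_GQ-16 against Ctl. The title number as covariate gave 393 genes (2.97%) in PAN against Ctl. Libraries numbered 15 or lower hold 1 PAN rat, so no fit within them was made for the 3 comparisons with PAN. No paired analysis was possible because the labels give no replicate numbers that groups share.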

Other observations

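Among the 62 other proximal tubule genes, 15 did not reach a correlation of 0.8 with the mean of the 10 genes over the 16 rats, after group means were taken out. The lowest were Cyp27b1, which makes active vitamin D, at -0.04, the glucose cotransporter gene Slc5a1 at 0.26, the amino acid carrier gene Slc7a13 at 0.28, the peptidase gene Dpp4 at 0.44 and Acsm3 at 0.45. Means were 3.73 CPM for Cyp27b1, 2.60 CPM for Slc5a1, 5.61 CPM for Slc7a13, 17.7 CPM for Acsm3 and 569 CPM for Dpp4. These genes were picked out after their values were seen. Slc7a13 had the fitted difference nearest to a call in PAN against Ctl, 1.26 with an adjusted p of 0.0604 by limma, opposite in sign to the median of the 62 genes. In PAN_Pio against Ctl the gene nearest to a call was Cyp24a1, which breaks down active vitamin D, at -1.42 with an adjusted p of 0.0654. Cyp4a2, a fatty acid hydroxylase gene, was at -1.40 in PAN_GQ-16 against Ctl (adjusted p 0.105), -0.94 in PAN_Pio against Ctl (adjusted p 0.157) and -1.02 in PAN_GQ-16 against PAN (adjusted p 0.536), comparisons that share rats.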
